A study of Mus musculus with 6 samples.

Results

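Potassium channel genes were compared in the heart ventricles of mice with and without an induced loss of Tead1 in cardiomyocytes. The genes were all those whose symbol starts with Kcn, with Abcc8 and Abcc9, found through the RefSeq accession of their array probes. Of 100 such genes in the RefSeq table, 98 had a probe, and 46 were bright enough to be tested among 22278 features in all. The other 52 with a probe were not well above background on all 3 arrays of either group, and 41 of these were above background on no array. Of the 46, 38 were well above background on all 6 arrays. The remaining 8 passed on the strength of 1 group, 3 through the controls and 5 through the icKO arrays.

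Total RNA from male C57bl/6j mice aged 11 to 12 weeks was measured on 6 one-colour Agilent arrays, 1 mouse each. The 3 Tead1 icKO mice were homozygous for floxed Tead1 (Tead1F/F), carried Myh6-CreER, a Cre recombinase that cardiomyocytes make and tamoxifen activates, and were given tamoxifen. The 3 control mice were Tead1 flox mice, also given tamoxifen, and no Cre is named for them. Cre and loss of Tead1 therefore cannot be told apart. How long after tamoxifen the hearts were taken is not stated in the labels.

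Potassium channels end the cardiac action potential and hold the resting voltage of the cell. The transient outward current Ito begins repolarization, the delayed rectifiers IKur, IKss, IKr and IKs carry it on, and the inward rectifier IK1 completes it and sets the resting voltage. KATP channels open when ATP falls and link metabolism to excitability, and two-pore channels carry background current. In adult mouse ventricle Ito and the fast delayed rectifiers dominate, while IKr and IKs are minor.

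All 6 arrays lay on 1 slide. Controls occupied slide columns 1, 1 and 2 and icKO arrays columns 2, 3 and 3, so position on the slide and group can hardly be told apart. On each array, 47.7% to 50.9% of probes were well above background and none was saturated. Precision is limited by the number of arrays. Values are log2 signals less the 75th percentile of their array, so 0 marks that percentile, and a level of one gene is not comparable with that of another. The Tead1 probe used stood at 4.01, 3.79 and 3.96 in controls and 3.66, 3.44 and 3.46 in icKO, a difference of -0.40 ± 0.11 (SE; adjusted p = 0.0300). Its other kept probes gave -0.43 and -0.19. The call did not hold with median scaling (-0.24, adjusted p = 0.186), spike-in scaling (0.03, adjusted p = 0.902), slide row as a term (adjusted p = 0.0631) or dim probes kept (adjusted p = 0.122), or in fits without control replicate 1 or 3 or icKO replicate 2 or 3 (-0.35 to -0.38, adjusted p = 0.0838 to 0.0888). Where the probe lies relative to the deleted part is not known here, so it does not check the labels. In ventricular tissue the defining cardiomyocyte genes were bright. Their summed level fell from between 12.3 and 12.5 in controls to between 11.6 and 11.8 in icKO, with 6 of 8 markers lower and none higher, or 1 of 8 lower with spike-in scaling. Summed macrophage markers (6 of 7 measured, 5 higher) went from between 4.91 and 5.36 to between 6.06 and 6.45, and fibroblast markers (6 of 6 measured, 5 higher) from between 7.73 and 8.42 to between 8.90 and 9.18. In bulk tissue, fewer cells of a type and less RNA per cell cannot be told apart.

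Of the 46 potassium channel genes, 27 changed, 18 lower and 9 higher in icKO ventricles (limma, Benjamini-Hochberg adjusted p under 0.05 over all features). That is 58.7% of the genes tested, beside 44.8% of all features and 48.2% of all named genes. Lower calls made up 39.1% of the genes, beside 28.7% of all features, and higher calls 19.6%, beside 16.0%. Among the higher, Kcnj14, Kcnmb4 and Kcnab1 passed the brightness filter only through icKO arrays, and Kcnip2 among the lower only through controls. The median difference of the 46 was -0.17, against -0.14 over all features. The 3 icKO arrays lay wholly to one side of the 3 controls for 30 genes (65.2%), beside 59.3% of all features. A change of at least 1 on the log2 scale passed for 14 of the 46 (30.4%), 7 lower and 7 higher, beside 14.1% of all features. With normexp background correction, which with an added offset compresses dim signals, a change of that size passed for 6 lower genes and for Kcnj4 alone among the higher, beside 7.2% of all features. Among probes above background on all 6 arrays it passed for 6 lower and 4 higher, beside 11.2% of all features. Scaling decided how many of the smaller falls passed: 7 genes were lower and 13 higher when arrays were scaled to their spike-in controls, which added 0.43 to the median difference of all features. Kcnip2, Kcnv2, Kcnd2, Kcnj8, Abcc9 and Kcnj2 were among the 7 lower with that scaling. Under it 37.3% of all features passed, 80.2% of those higher.

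**Figure D1:**
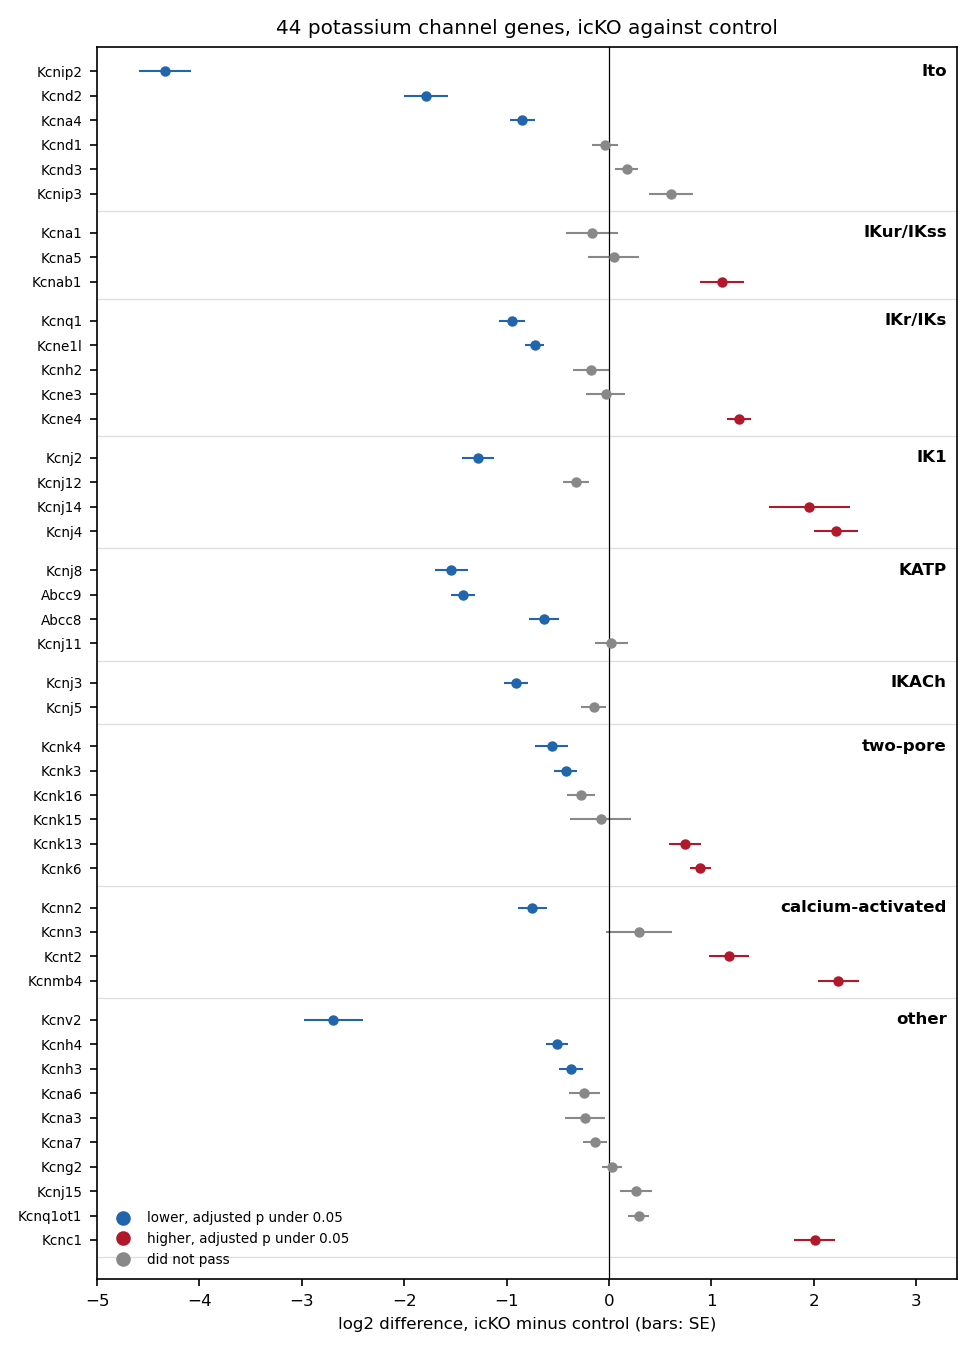
Log2 difference between icKO and control (x axis; points, with the standard error as bars) for 44 of the 46 genes tested, 3 arrays a group, ordered within the current it contributes to. Kcnip2 at -4.34 lies farthest to the left, and in IK1 Kcnj2 at -1.28 lies opposite Kcnj4 at 2.22.

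The transient outward current held the largest fall. Kcnip2 encodes KChIP2, the calcium-binding subunit that brings Kv4 channels to the surface of ventricular myocytes. It stood at 1.13, 1.55 and 1.12 in the 3 controls and at -2.81, -2.78 and -3.62 in the 3 icKO arrays. The groups were far apart, and 1 of the 3 icKO arrays no longer lay well above background. The difference was -4.34 ± 0.26 (SE, adjusted p = 0.000199), or 20.2-fold lower, a size that is uncertain at that brightness and came to -2.93 with normexp background correction.

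Kcnd2 encodes Kv4.2, the pore subunit of fast Ito that KChIP2 binds. Its levels were 1.85, 1.58 and 1.47 in controls and -0.61, 0.04 and 0.10 in icKO. It fell by 1.79 ± 0.22, or 3.45-fold (adjusted p = 0.00157). Kcnd3, which encodes the other ventricular Kv4 pore, Kv4.3, gave 2.06, 2.32 and 2.08 against 2.26, 2.31 and 2.41. The Kcnd3 groups overlapped, with a difference of 0.17 ± 0.11 (adjusted p = 0.240), called higher with spike-in scaling alone among the alternatives (0.60, adjusted p = 0.0497). Kcna4, the Kv1.4 pore of slow Ito, stood at 2.51, 2.20 and 2.22 in controls and at 1.59, 1.39 and 1.41 in icKO. The fall of 0.85 ± 0.12 (adjusted p = 0.00298) did not pass with spike-in scaling (-0.42). Kcnd1, at 0.72, 0.32 and 0.47 against 0.42, 0.45 and 0.52, differed by -0.04 ± 0.13 (adjusted p = 0.820). Kcnip3, a KChIP relative also known as the transcriptional repressor DREAM, differed by 0.61 ± 0.22 (adjusted p = 0.0622), with all 3 icKO arrays above the controls. It was called higher in 5 alternatives, among them spike-in scaling (1.03, adjusted p = 0.00738). In all, 3 of 6 Ito genes fell and none rose, beside 28.7% of all features lower and 16.0% higher. Of these 3, Kcnip2 passed the brightness filter only through the controls. The median of the 6 was -0.44, and Kcnip1 and Kcnip4 were above background on no array.

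Among genes of the ultrarapid and steady-state delayed rectifiers, Kcna5, the Kv1.5 pore of IKur, differed by 0.04 ± 0.25 (adjusted p = 0.896) and Kcna1 by -0.16 ± 0.25 (adjusted p = 0.621), and the groups of each overlapped. Kcnab1, a cytoplasmic beta subunit of Kv1 channels, went from -3.50, -3.98 and -3.29 to -2.69, -2.21 and -2.55. It rose by 1.11 ± 0.21 (adjusted p = 0.00778), but only 1 of 3 controls was well above background and the gene passed the brightness filter through its icKO arrays, so the size is uncertain. The call was lost with normexp correction (0.11).

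A silent subunit forms no channel alone and joins the pores of other families. Kcnv2 encodes one of these, Kv8.2. It stood at -0.41, 0.30 and -0.46 in controls and at -3.30, -2.42 and -2.92 in icKO, with no overlap. The fall was 2.69 ± 0.29, or 6.46-fold (adjusted p = 0.00106), and came to -1.69 with normexp correction. Kcng2, which encodes another silent subunit, differed by 0.03 ± 0.10 (adjusted p = 0.808).

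The rapid and slow delayed rectifiers divided. Kcnq1, the pore of IKs, stood at 2.53, 2.53 and 2.81 in controls and at 1.71, 1.55 and 1.78 in icKO, with no overlap. It fell by 0.95 ± 0.12, or 1.93-fold (adjusted p = 0.00200), and did not pass with spike-in scaling (-0.52). Kcnh2, the pore of IKr, stood at 1.06, 1.54 and 1.44 against 1.41, 1.01 and 1.10, and its groups overlapped (-0.18 ± 0.17, adjusted p = 0.438). The accessory subunits of the Kcne family have a single membrane span and alter how these pores open. Kcne4, which inhibits Kcnq1 channels, stood at -3.29, -3.35 and -3.19 in controls and at -2.08, -1.82 and -2.13 in icKO. It rose by 1.27 ± 0.12, or 2.41-fold (adjusted p = 0.000660), a size that came to 0.36 with normexp correction. A further Kcne4 probe was above background on no array. Kcne1l, also known as Kcne5, fell by 0.73 ± 0.09 (adjusted p = 0.00201) through its brighter probe, but its other kept probe gave 0.85 and the mean of both 0.06. Kcne3 differed by -0.03 ± 0.19 (adjusted p = 0.905), and was called lower with normexp correction alone (-0.32). Kcne1 and Kcne2 were above background on no array.

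The inward rectifier family that carries IK1 showed changes in both directions. Kcnj2 encodes Kir2.1, the main IK1 pore of ventricular myocytes. It stood at -0.53, -0.95 and -0.82 in controls and at -1.88, -2.01 and -2.25 in icKO, and fell by 1.28 ± 0.15, or 2.43-fold (adjusted p = 0.00155), or by 0.80 with normexp correction. Kcnj4, the Kir2.3 pore, moved the other way, from -1.44, -2.18 and -1.94 to 0.57, 0.11 and 0.42. It rose by 2.22 ± 0.22, or 4.66-fold (adjusted p = 0.000790), and by 1.43 with normexp correction. Kcnj14, the Kir2.4 pore, was not well above background on any control, at -3.96, -4.11 and -4.03, and stood at -3.03, -1.40 and -1.81 in icKO. It was at least 3.02-fold brighter in icKO, by the icKO mean over the mean of, on each control, the higher of its own signal and the lowest signal that counted as above background there (adjusted p = 0.00942). The call was lost with normexp correction (0.41), and a further Kcnj14 probe was above background on no array. Kcnj12, the Kir2.2 pore, stood at 2.25, 2.18 and 2.32 against 1.69, 2.07 and 2.02. All its icKO arrays were below the controls, but the difference of -0.32 ± 0.13 did not pass (adjusted p = 0.0845). Of the 4 IK1 genes, 1 fell, Kcnj4 rose, and Kcnj14 passed the brightness filter only through its icKO arrays. Over all features, 28.7% were lower and 16.0% higher.

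**Figure D2:**
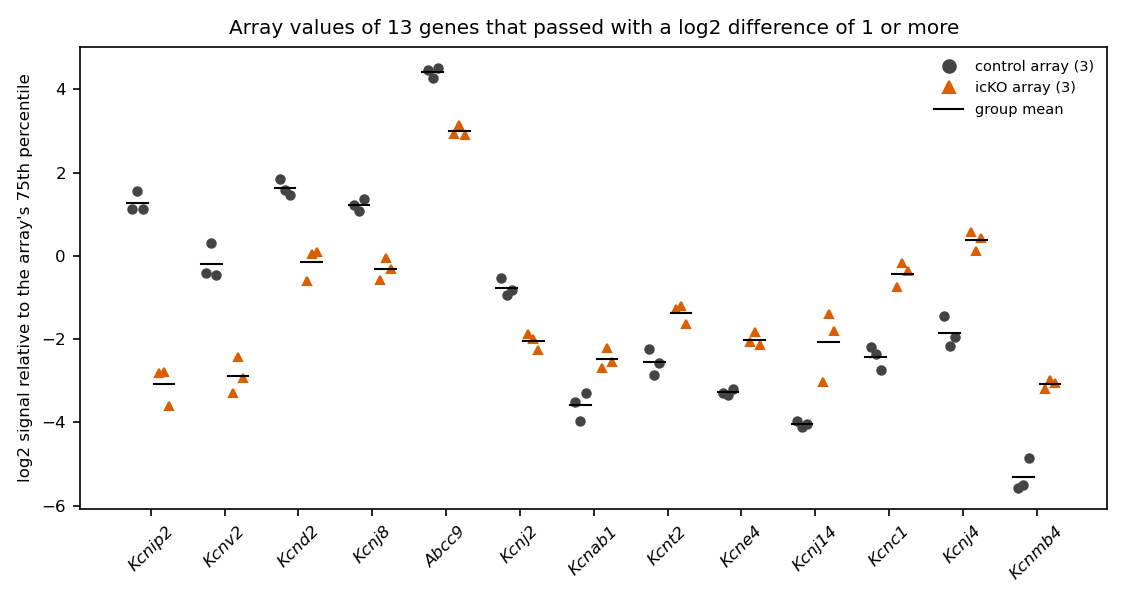
Log2 signal relative to the 75th percentile of the array (y axis) on each control array (circles) and icKO array (triangles), with group means as lines, for 13 of the 14 genes that passed with a log2 difference of 1 or more. The groups do not overlap for any of those drawn, and the icKO arrays of Kcnj14 spread most, from -3.03 to -1.40.

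The 4 KATP genes gave 3 falls and no rise, beside 28.7% of all features lower and 16.0% higher. A KATP channel joins Kir6 pores, Kcnj11 (Kir6.2) or Kcnj8 (Kir6.1), with sulfonylurea receptors, Abcc8 (SUR1) or Abcc9 (SUR2). Kcnj8 stood at 1.22, 1.09 and 1.35 in controls and at -0.59, -0.06 and -0.31 in icKO. It fell by 1.54 ± 0.16, or 2.91-fold (adjusted p = 0.000923). Abcc9 stood at 4.46, 4.27 and 4.51 against 2.93, 3.14 and 2.90, and fell by 1.42 ± 0.12, or 2.68-fold (adjusted p = 0.000448). Neither pair of groups overlapped. Kcnj11, the pore of the ventricular myocyte channel, stood at 1.94, 2.42 and 2.17 against 2.39, 2.02 and 2.18, and overlapped throughout (0.02 ± 0.16, adjusted p = 0.926). Its other kept probe gave 0.04. Abcc8 stood at 4.09, 4.14 and 4.21 against 3.20, 3.67 and 3.65, and fell by 0.64 ± 0.15 (adjusted p = 0.0152). Its other probe gave -0.65. The Abcc8 call did not hold with median scaling (-0.48), spike-in scaling (-0.21), no filter on dim probes (adjusted p = 0.0650) or without control replicate 3 (-0.60, adjusted p = 0.0514).

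Kcnj8 and Abcc9 are also known from pericytes and smooth muscle. Summed markers of those cells (8 of 8 measured, 2 higher, 1 lower) lay between 5.75 and 6.33 in controls and between 6.03 and 6.21 in icKO, and overlapped. Pdgfrb, a pericyte receptor, differed by -0.01 ± 0.14, while the pericyte gene Rgs5 fell by 0.51 ± 0.14 (adjusted p = 0.0281). Cspg4, the pericyte proteoglycan NG2, rose by 0.79 ± 0.14 (adjusted p = 0.00591), and Tagln, a smooth muscle actin-binding protein, by 1.46 ± 0.19 (adjusted p = 0.00213). The remaining markers did not pass, Acta2 (-0.77 ± 0.38), Notch3 (-0.28 ± 0.13), Cnn1 (-0.01 ± 0.42) and Myh11 (0.41 ± 0.23). The Rgs5 fall was lost in several alternatives, among them median scaling (-0.36), spike-in scaling (-0.09) and dim probes kept (adjusted p = 0.105). Nor did it pass without control replicate 1 (-0.50) or 3 (-0.45) or icKO replicate 2 (-0.49) or 3 (-0.42). Summed endothelial markers (6 of 6 measured, 3 lower, none higher) went from between 4.85 and 5.16 to between 4.45 and 4.70, a difference of -0.42 that was 0.01 with spike-in scaling, where none of the 6 passed. Summed cardiomyocyte markers differed by -0.64, or by -0.21 with spike-in scaling. The part of these cell types in the 2 falls was not tested. In the RefSeq gene table (GRCm38.p6) Kcnj8 and Abcc9 are neighbours on chromosome 6, as are Kcnj11 and Abcc8 on chromosome 7. The first pair fell by similar amounts (-1.54 and -1.42), whereas the values of the second were 0.02 and -0.64. The remaining pairs of tested neighbours, Kcna5 with Kcna1 and Kcna1 with Kcna6 on chromosome 6, held no gene that passed.

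Ratios within an array do not depend on scaling between arrays, so 6 pairs of partner or alternative subunits were compared that way, with the control mean of each ratio set to 0. Kcnip2 against its pore Kcnd2 stood at -0.35, 0.34 and 0.02 in controls and -1.83, -2.46 and -3.35 in icKO, a change of -2.55. With normexp correction this was -1.40. Kcnd2 against Kcnd3 changed by -1.96, from between -0.22 and 0.31 to between -2.35 and -1.74. Kcnj11 changed by 1.56 against Kcnj8 and by 1.45 against Abcc9. Kcnj2 against Kcnj12 changed by -0.96, or -0.55 with normexp correction, and Kcnj3 against Kcnj5 by -0.76. In each of the 6 pairs the 3 icKO arrays lay outside the range of the 3 controls, as they did for 59.3% of all single features. The exact two-sided permutation p was 0.1 for each pair, the smallest that 3 arrays against 3 allow, and 0.1 after Benjamini-Hochberg adjustment over the 6. These pairs were picked with earlier results of the data known, and most set a gene that passed against another that did not. Their separation is therefore a description and no test.

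**Figure D3:**
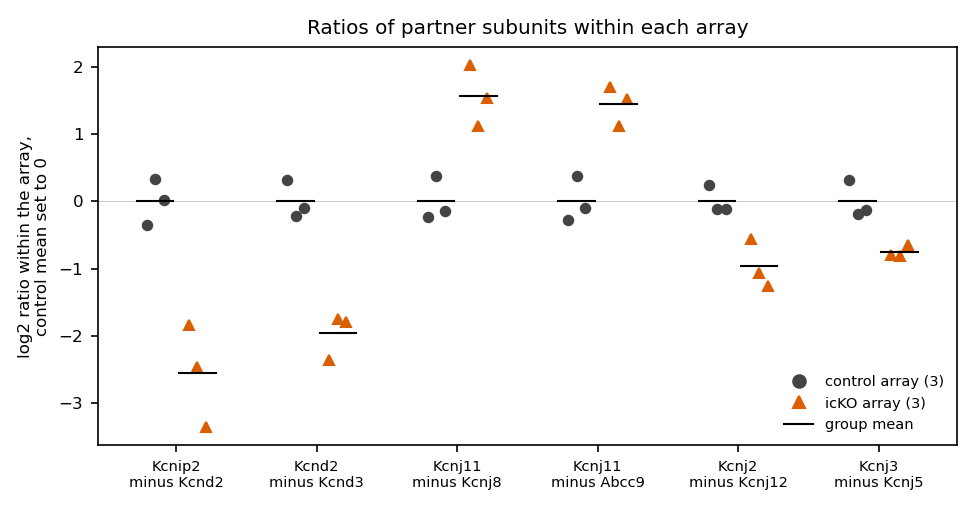
Log2 ratio of 2 subunit genes within each array (y axis, with the mean of the 3 controls set to 0), for control arrays (circles) and icKO arrays (triangles), with group means as lines. The ratio of Kcnip2 to Kcnd2 changed by -2.55 on average, and that of Kcnj11 to Kcnj8 by 1.56.

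The acetylcholine-gated current IKACh, best known from atrium and sinus node, is built from Kcnj3 and Kcnj5. Kcnj3 stood at -0.44, -0.67 and -0.59 in controls and at -1.62, -1.46 and -1.34 in icKO. The fall was 0.91 ± 0.12 (adjusted p = 0.00190), and its other probe gave -0.97. With spike-in scaling it did not pass (-0.48). Kcnj5 differed by -0.15 ± 0.12 (adjusted p = 0.349). Of 5 atrial markers, Myl7, Sln and Bmp10 were well above background on at most 2 of the 6 arrays, Nppa overlapped between groups, and Myl4 rose by 2.04 ± 0.14.

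Of 6 two-pore channel genes, 2 were called lower and 2 higher (33.3% each), beside 28.7% and 16.0% of all features. Kcnk3 encodes TASK-1, an acid-sensitive background channel. It stood at 4.77, 4.97 and 4.99 against 4.54, 4.34 and 4.59, and fell by 0.42 ± 0.12 (adjusted p = 0.0257). Kcnk4, the mechanosensitive TRAAK channel, fell by 0.56 ± 0.16 (adjusted p = 0.0314). Kcnk3 did not keep its call in 10 of 18 alternatives, among them spike-in scaling (0.0021) and leaving out control replicate 2 (-0.39), control replicate 3 (-0.39) or icKO replicate 2 (-0.35). Kcnk4 did not in 12 of 18, among them spike-in scaling (-0.13) and each fit without 1 icKO array (-0.50, -0.59 and -0.58), without control replicate 1 (-0.41) and without control replicate 3 (-0.57). Kcnk6, the TWIK-2 channel, stood at 0.64, 0.47 and 0.54 in controls and 1.35, 1.58 and 1.39 in icKO, and rose by 0.89 ± 0.11, or 1.86-fold (adjusted p = 0.00144). Kcnk13, the THIK-1 channel, stood at -1.65, -2.20 and -2.06 against -1.25, -1.20 and -1.23, and rose by 0.74 ± 0.15, or 1.68-fold (adjusted p = 0.00992), or by 0.38 with normexp correction. Both are known from macrophages or microglia, and summed macrophage markers were 1.18 higher in icKO. The part of those cells in the 2 rises was not tested. Kcnk15 and Kcnk16 did not pass (-0.08 and -0.27), and Kcnk2, the TREK-1 channel, was above background on no array. Kcnk16 was called lower with normexp correction alone (-0.36).

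Of 4 genes for calcium- and sodium-activated channels, Kcnt2 was called higher and 1 lower, beside 16.0% and 28.7% of all features. Kcnmb4 was also called higher, but passed the brightness filter only through its icKO arrays. Kcnmb4, an accessory subunit of the large-conductance BK channel best known from brain, was not well above background on any control, at -5.57, -5.51 and -4.87. It stood at -3.20, -2.97 and -3.05 in icKO and was at least 1.73-fold brighter there (adjusted p = 0.000606). The call was lost with normexp correction (0.10). A further Kcnmb4 probe and the BK pore Kcnma1 were above background on no array. Kcnt2, a sodium-activated pore, stood at -2.24, -2.85 and -2.56 against -1.27, -1.20 and -1.65, and rose by 1.18 ± 0.20, or 2.26-fold (adjusted p = 0.00473), but by 0.40 with normexp correction. A further Kcnt2 probe was above background on no array. Kcnn2, a small-conductance calcium-activated pore, stood at 0.41, 0.53 and 0.56 against -0.33, -0.44 and 0.02. Its fall of 0.75 ± 0.14 (adjusted p = 0.00733) did not pass with spike-in scaling (-0.32). Kcnn3 differed by 0.29 ± 0.32 (adjusted p = 0.489), with its icKO arrays spread from -3.50 to -2.38.

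The remaining genes were listed under none of these currents. Kcnc1, the Kv3.1 pore of fast-firing neurons, stood at -2.20, -2.37 and -2.75 in controls and at -0.75, -0.17 and -0.37 in icKO. It rose by 2.01 ± 0.20, or 4.02-fold (adjusted p = 0.000866), and by 0.96 with normexp correction. Its other kept probe was well above background on no control and at least 4.64-fold brighter in icKO. One more Kcnc1 probe, for another transcript, was above background on no array. Among markers of neurons and Schwann cells (5 of 7 measured), the neuronal gene Uchl1 rose by 2.39 ± 0.12 and Sox10, a Schwann cell factor, fell by 0.45 ± 0.13. The Sox10 fall was lost in several alternatives, among them median scaling (-0.29), spike-in scaling (-0.02) and dim probes kept (adjusted p = 0.123). Nor did it pass without control replicate 1 (-0.41), 2 (-0.44) or 3 (-0.50), icKO replicate 1 (-0.33) or icKO replicate 3 (-0.49). The summed level of these markers went from between 1.40 and 1.44 to between 2.13 and 2.20, and their part in the Kcnc1 rise was not tested. Kcnh4 and Kcnh3 of the ether-a-go-go family fell by 0.51 ± 0.11 and 0.37 ± 0.12 (adjusted p = 0.0106 and 0.0448), and the Kcnh4 fall did not pass with median scaling (-0.35), spike-in scaling (-0.08) or no filter on dim probes (adjusted p = 0.0574). Kcnh3 did not keep its call in 12 of 18 alternatives, among them spike-in scaling (0.06) and each fit without 1 icKO array (-0.36, -0.35 and -0.40), without control replicate 1 (-0.35) and without control replicate 2 (-0.29). A further 6, Kcna3, Kcna6, Kcna7, Kcng2, Kcnj15 and the noncoding Kcnq1ot1, differed by between -0.24 and 0.29 and did not pass. Of these, Kcnq1ot1 (adjusted p = 0.0586) had all icKO arrays above the controls. It was called higher in 4 alternatives, among them spike-in scaling (0.72), and Kcnj15 was called higher with that scaling alone (0.69).

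**Figure D4:**
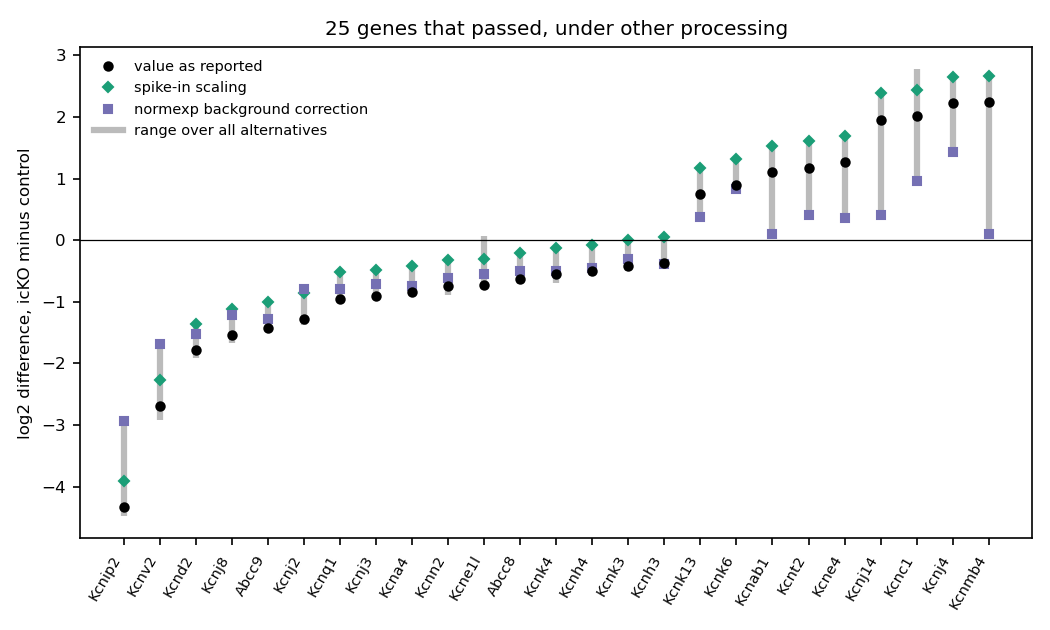
Log2 difference between icKO and control (y axis) for 25 of the 27 genes that passed: the value as reported (black), with spike-in scaling (green), with normexp background correction (purple), and the range over all 18 alternatives (grey bars). Spike-in scaling moves every gene drawn up by 0.43, and normexp brings the dim genes Kcnmb4 and Kcnab1 to 0.10 and 0.11.

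Genes outside the family that bind, anchor or regulate these channels were described from a list of 25, of which 23 were tested, 9 lower and 2 higher, or 47.8% called beside 44.8% of all features. With spike-in scaling 5 were lower and 7 higher, beside 37.3% of all features called. Hopx, a homeodomain cofactor of the heart, stood at 5.64, 5.69 and 5.64 in controls and at 3.75, 3.25 and 3.13 in icKO, and fell by 2.28 ± 0.17 (adjusted p = 0.000358). Irx5 and Irx3 encode Iroquois factors known to shape the gradient of Kcnd2 across the ventricular wall and conduction. They fell by 1.39 ± 0.20 and 1.14 ± 0.15 (adjusted p = 0.00299 and 0.00202), or by 0.87 and 0.94 with normexp correction. Irx4 differed by -0.38 ± 0.21 (adjusted p = 0.174). The part of these factors in the fall of Kcnd2 was not tested. Klf15, a factor known to drive Kcnip2, went from -1.20, -1.43 and -1.32 to -0.31, -0.69 and -0.35. It rose by 0.86 ± 0.14 (adjusted p = 0.00388), or by 0.57 with normexp correction, while Kcnip2 fell. A link between these changes was not tested. Of the Popeye proteins, some of which bind the TREK-1 channel, Popdc2 fell by 1.29 ± 0.10 and Popdc3 rose by 1.30 ± 0.18 (adjusted p = 0.000393 and 0.00267). Dpp6, an accessory subunit of Kv4 channels, differed by -0.34 ± 0.19 (adjusted p = 0.191), and Dpp10 was above background on no array.

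TEAD factors bind the MCAT element, whose core is CATTCC, so the 250 bases before each listed start were searched for it on both strands. RefSeq promoters (GRCm38.p6) matched 32 of the 46 genes by symbol. The core was found in 3 of 10 genes that fell, 1 of 7 that rose and 1 of 15 that did not pass. It was found in 10 of 41 family genes that were not tested (24.4%) and in 14.4% of the 27025 genes in the table. The matches in tested genes are shown because they are the places where these promoters carry the letters TEAD1 is known to read. They are written along the gene's strand with the core, or GGAATG for the other strand, in capitals.
Abcc9 (chr6:142702461-142702520, - strand, 219 bases before the start): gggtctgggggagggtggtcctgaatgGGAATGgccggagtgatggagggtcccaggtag
Kcne1l (chrX:142306356-142306415, - strand, 190 bases before the start): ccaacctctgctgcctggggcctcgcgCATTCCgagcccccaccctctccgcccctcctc
Kcnk4 (chr19:6934729-6934765, - strand, 246 bases before the start): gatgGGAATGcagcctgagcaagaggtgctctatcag
Kcnk13 (chr12:99964349-99964408, + strand, 123 bases before the start): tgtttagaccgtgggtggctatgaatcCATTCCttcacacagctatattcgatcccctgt
Kcna5 (chr6:126535651-126535710, - strand, 128 bases before the start): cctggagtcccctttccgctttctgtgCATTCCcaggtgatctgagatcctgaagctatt
Of these, Abcc9 fell by 1.42, Kcnk13 rose by 0.74 and Kcna5 differed by 0.04. The falls of Kcne1l and Kcnk4 did not hold in all alternatives, as given above. Of the genes with falls of at least 1, Kcnip2, Kcnd2, Kcnj8 and Kcnj2 had a promoter in the table and no CATTCC in this window. A match is a description of letters, not a bound site.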

How the data were processed

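Per the file headers, the authors' deposited intensity values are linear and were background-subtracted array by array with Agilent Feature Extraction 11.0.1.1 (design 028005, mouse build mm9). Version 9.1 is named in the submitters' processing notes. Signals were log2-transformed and the 75th percentile over non-control spots of the array was subtracted. Outlier spots were left out, spots of a probe averaged, and 26152 of 55681 probes kept, each well above background throughout 1 group or both. Probes were named by RefSeq accession without version (26582 probes). The brightest kept probe represents a gene. Groups were fitted with limma 3.58.1 in R 4.3.3 (lmFit, eBayes, group only), adjusted by Benjamini-Hochberg over all 22278 features at 0.05, after tests on simulated data. No array value of a reported gene was missing.

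Every tested gene of the cardiac currents and every gene that passed is named, apart from 2 genes that are counted in all totals but not reported here. Array values are given where a change of at least 1 passed and for the pores of Ito, IKr/IKs, IK1 and KATP, with some others chosen after their values were seen. Markers named singly, and genes with a count of 0 arrays above background, were also chosen so. The members and lists were chosen with earlier results of these data known. The authors' value table, also intensity, served as an alternative, and its normalization is not stated. Normexp (offset 50) used the median spot signal, since the files used here lack the planned mean signal.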

Additional observations from a re-analysis of the deposited data

How the results depend on the processing

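Of the 27 genes that passed, 13 kept their direction and call in every one of the alternatives in which they could be tested, up to 18, 7 lower and 6 higher. They include Kcnip2, Kcnv2, Kcnd2, Kcnj8, Abcc9 and Kcnj2 lower, and Kcnj4, Kcnc1, Kcne4, Kcnt2, Kcnk6 and Kcnk13 higher. How many calls over all features held in this way was not counted. With spike-in scaling 7 genes were lower and 13 higher, and of the partner genes 5 were lower and 7 higher. That scaling turned the sign of Kcnh3 (0.0581), Kcnk3 (0.0021) and Tead1 (0.0283), and averaging its probes turned Kcne1l (0.0643). Median scaling gave 13 lower and 11 higher, beside 36.2% of all features called. It moved the share of higher calls among all features from 35.8% to 54.6%, against 80.2% with spike-in scaling. With all 6 arrays above background, 38 genes were tested, 17 lower and 6 higher, beside 45.6% of all features called. Leaving out each array in turn gave 15 to 16 lower and 9 higher genes, and 7 to 9 lower and 2 higher partner genes. In those fits 33.9% to 40.8% of all features were called. Same-numbered samples did not deviate together (correlations -0.05, -0.13 and -0.0009). With replicate number as a block 15 genes were lower and 10 higher, beside 35.4% of all features called, and Tead1 did not pass (adjusted p = 0.0509). Normexp correction and outlier spots kept were chosen after seeing the data. Low signal limits the size of Kcnip2, Kcnv2, Kcnj2, Kcnj4, Kcnj14, Kcnc1, Kcne4, Kcnt2, Kcnk13, Kcnmb4 and Kcnab1, whose differences normexp correction reduced.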

Other observations

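Of the 8 further probes kept for tested genes, 6 gave the same sign as the probe used. The exceptions were Kcne1l, reported above, and Kcng2 (-0.06 against 0.03). The second Kcna7 probe gave -0.59 where the probe used gave -0.14, and the mean of both was called lower. Further probes of Kcnk4 and Kcnh4 were above background on no array. Of the genes that were not kept, 11 were well above background on 1 or 2 arrays and 0 on more.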
